A study of Homo sapiens with 18 samples.

Results

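The data described here are the 72-hour response of A375 cells to the PRMT5 inhibitor (PRMT5i) GSK3326595, measured as RNA-seq read counts per gene. A375 is an established melanoma line which carries mutant BRAF and wild-type p53 according to the study. The members were chosen by their labels: 2 A375 libraries of cells kept with 500 nM GSK3326595 for 72 hours and 2 A375 libraries of cells that received DMSO alone for the same time, 4 libraries of 18 in the series. The 2 A375 libraries of cells given 1 μM palbociclib, a CDK4/6 inhibitor (CDK4/6i), for 72 hours entered the same fit and served as a second treatment to compare with. All 6 libraries come from 1 cell line, and the labels do not say whether replicates were separate cultures, so the tests measure the spread between libraries, which may be technical.

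PRMT5 adds symmetric dimethyl groups to arginines. Its best known substrates are Sm proteins, which form the cores of the spliceosomal snRNPs, and histones H3 and H4. It acts in a complex with WDR77, and CLNS1A and RIOK1 bring different substrates to that complex. In cells with wild-type p53, loss of PRMT5 activity is known to alter the splicing of MDM4, a partner of MDM2 in holding p53 down, and p53 in turn switches on genes for cell cycle arrest, DNA repair and cell death. E2F factors drive genes of DNA replication, and the DREAM complex acts on genes of G2 and mitosis through elements named CHR.

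In PRMT5i-treated A375 cells, the p53 target genes rose and the genes of DNA replication, histones, mitosis and homologous recombination fell. In all, 3265 genes were differentially expressed (DEGs) between PRMT5i and control, 1374 up-regulated and 1891 down-regulated, among 20705 genes tested. A DEG is a gene whose Benjamini-Hochberg adjusted p in edgeR's quasi-likelihood test was below 0.05 over all genes. This is 15.8% of the genes tested, with 6.64% up-regulated and 9.13% down-regulated, which is the background for the counts that follow. In each of the 3265 DEGs both PRMT5i libraries lay beyond both controls, which was so for 26.2% of all genes upward and for 27.1% downward. The changes were mostly modest, with a median absolute log2 fold change of 0.62 among DEGs, and 351 DEGs rose and 325 fell by at least 1 on the log2 scale. The study, which used edgeR with TMM and an FDR below 0.05 after removing lowly expressed genes, reported far fewer DEGs for this comparison. The reason was not tested. The number of DEGs found here fell to 541 when all 10 A375 libraries shared 1 fit and to 666 when all 18 libraries did. It was 1865 without PRMT5i replicate 2, 1598 without control replicate 1, and 1862 or 1856 without CDK4/6i replicate 1 or 2.

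The libraries held between 16213475 and 19598242 counts and 19745 to 20038 detected genes. The first principal component (55.3% of the variance) separated control from CDK4/6i libraries with the PRMT5i libraries between them, and the second (25.1%) set the PRMT5i libraries apart. Replicates varied with a coefficient of 0.105 among control, 0.12 among PRMT5i and 0.0684 among CDK4/6i libraries (edgeR's common biological coefficient of variation). As a check of the line, MITF lay at 115 to 142 CPM and PRAME at 133 to 151 CPM in the control and PRMT5i libraries, while PMEL was at 1.15 to 1.94 CPM and TYR and DCT were below 1 CPM (CPM, reads scaled to a common library size by TMM). Markers of other cell types were low but higher under PRMT5i in sum. The fibroblast sum was 2.92 to 3.68 CPM in control and 5.56 to 5.75 CPM in PRMT5i libraries, the epithelial sum 4.02 to 4.46 and 5.10 to 5.44 CPM, the endothelial sum 1.25 to 3.84 and 3.87 to 4.16 CPM, and the leukocyte sum 2.33 to 3.03 and 3.40 to 5.18 CPM. Of their 15 members 1, KDR, was called, and their part in the results was not tested. In bulk RNA, fewer cells of a state and less RNA per cell cannot be told apart.

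**Figure D1:**
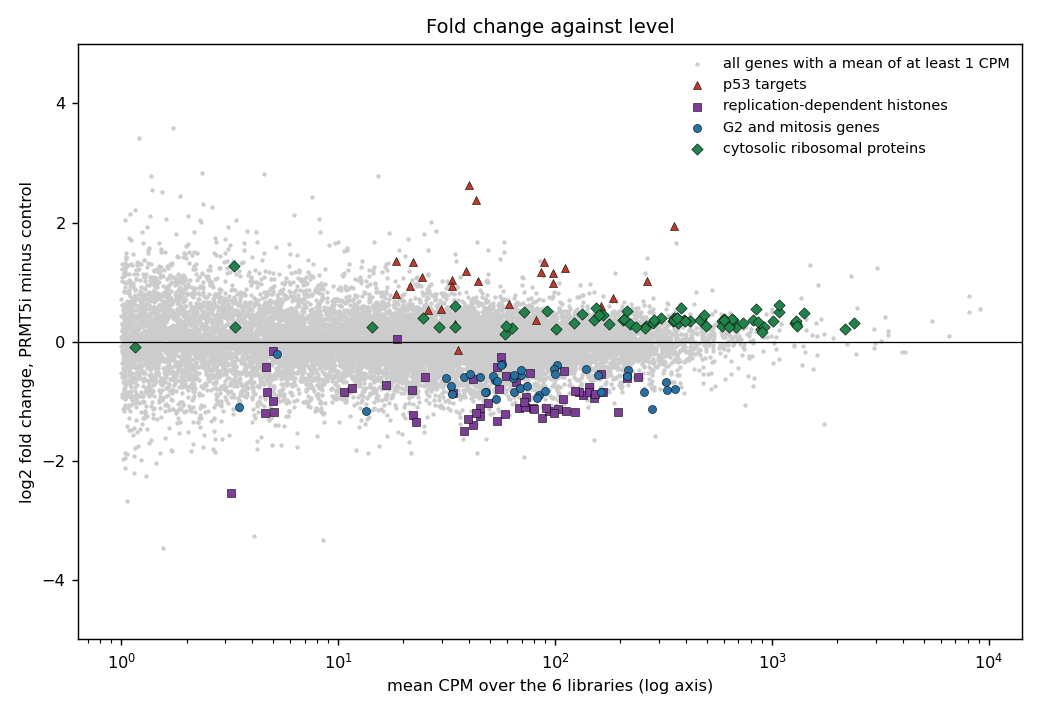
The log2 fold change of PRMT5i against control (vertical axis) is plotted against the mean level in CPM over the 6 libraries (logarithmic horizontal axis) for genes whose mean reached 1 CPM. Grey points are all these genes, and coloured points are p53 targets (mostly above 0), replication-dependent histones and G2 and mitosis genes (below 0) and cytosolic ribosomal proteins (slightly above 0, at high levels).

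A promoter from each of 4 groups is shown so that the searched elements can be seen in context, and the sequences were read from the RefSeq promoter table (GRCh38.p14, 250 bases before to 50 after the first listed start, plus strand for these 4 genes). GDF15 lies at chr19:18385908-18386207 with a p53 consensus in capitals (a 20-base site). POLA1 lies at chrX:24693668-24693967 with an E2F site in capitals, KIF23 at chr15:69414099-69414398 with its CCAAT box on the reverse strand and its CHR in capitals, and HIST1H3A (H3C1 in RefSeq) at chr6:26020201-26020500 with its CCAAT boxes and TATA box in capitals.
GDF15: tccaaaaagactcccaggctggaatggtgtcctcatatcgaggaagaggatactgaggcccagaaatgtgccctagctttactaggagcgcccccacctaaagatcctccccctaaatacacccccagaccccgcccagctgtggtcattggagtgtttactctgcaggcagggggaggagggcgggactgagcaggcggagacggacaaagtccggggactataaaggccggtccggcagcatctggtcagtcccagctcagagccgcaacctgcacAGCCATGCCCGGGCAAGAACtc
POLA1: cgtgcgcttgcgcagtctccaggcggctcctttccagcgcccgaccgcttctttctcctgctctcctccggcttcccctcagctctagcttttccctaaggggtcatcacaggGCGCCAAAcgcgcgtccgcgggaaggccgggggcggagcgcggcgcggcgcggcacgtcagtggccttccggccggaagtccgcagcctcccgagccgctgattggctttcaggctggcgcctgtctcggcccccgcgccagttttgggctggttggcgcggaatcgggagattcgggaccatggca
KIF23: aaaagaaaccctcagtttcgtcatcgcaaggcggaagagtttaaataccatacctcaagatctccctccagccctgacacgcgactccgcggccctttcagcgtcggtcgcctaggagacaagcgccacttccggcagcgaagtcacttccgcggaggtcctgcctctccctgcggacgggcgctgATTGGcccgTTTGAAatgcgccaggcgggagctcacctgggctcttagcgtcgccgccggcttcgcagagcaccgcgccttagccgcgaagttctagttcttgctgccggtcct
HIST1H3A: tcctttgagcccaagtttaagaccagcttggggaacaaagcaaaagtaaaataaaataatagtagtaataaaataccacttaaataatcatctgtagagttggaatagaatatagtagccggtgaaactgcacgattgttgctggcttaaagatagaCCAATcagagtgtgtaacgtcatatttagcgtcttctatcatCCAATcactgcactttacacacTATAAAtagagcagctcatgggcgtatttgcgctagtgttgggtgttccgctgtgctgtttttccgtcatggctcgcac

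Motifs were searched on both strands as exact letters: TTTGGCGC, TTTCGCGC or TTTCCCGC for E2F, TTTGAA or TTCGAA for CHR, CCAAT, and TATAAA. The p53 consensus needed its fixed C and G in both half-sites without a spacer, with at most 3 mismatches elsewhere. An E2F site was found in 2.79% of all 27305 promoter windows and in 4.12% of the 12395 windows of tested genes. It was in 21 of 39 windows of the replication list (53.8%). Among windows of DEGs it was in 7.75% for down-regulated and 3.3% for up-regulated genes. A CHR was found in 16.6% of all windows, in 12.2% of those of tested genes and in 25 of 34 windows of the G2 and mitosis list (73.5%). A CCAAT box was in 35.7% of all windows, 35.9% of those of tested genes, 76.5% of the mitosis windows and 83.0% of the 53 histone windows. A TATA box was in 12.0% of all windows, 7.0% of those of tested genes and 66.0% of the histone windows. The p53 consensus was in 1.05% of all windows and in 1.01% of those of tested genes. It was in 4 of the 21 windows of p53 targets, those of GDF15, FDXR, AEN and PMAIP1. Motifs of different names can share bases, and these matches describe the letters in the window only.

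Of the complex that the drug targets, WDR77 alone was called. WDR77, the obligate partner of PRMT5, was at 33.97 and 38.4 CPM in control and at 45.0 and 55.4 CPM in PRMT5i libraries (log2 fold change 0.47 ± 0.12 (SE), adjusted p = 0.0208). PRMT5 itself was at 12.6 and 14.8 CPM in control and 16.5 and 21.2 CPM in PRMT5i libraries (0.46 ± 0.16, adjusted p = 0.0698), and its mRNA is no check of enzyme inhibition. RIOK1 (0.42, adjusted p = 0.0535), COPRS (0.36, 0.161) and CLNS1A (0.15, 0.386) were not called. The WDR77 call was lost without PRMT5i replicate 2 (0.31), without control replicate 1 (0.39) and without either CDK4/6i library (0.47), while 4 members were called without PRMT5i replicate 1, 3 without control replicate 2 and 0 with all 10 A375 libraries in the fit. MAT2A, which makes the methyl donor S-adenosylmethionine, was at 374 and 396 CPM in control and 313 and 308 CPM in PRMT5i libraries and was not called (adjusted p = 0.0746). MTAP, the enzyme whose loss is known to sensitise cells to PRMT5 inhibition, had no entry among the genes tested and was not analysed here.

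The p53 targets were up-regulated as a group, with 24 of 26 measured members up-regulated, 0 down-regulated and a median log2 fold change of 1.02, beside a median of 0 over all genes. GDF15, a secreted stress cytokine, rose from 13.4 and 15.7 CPM in the controls to 70.9 and 110.2 CPM under PRMT5i (2.63 ± 0.19, adjusted p = 1.29e-05). CDKN1A, the CDK inhibitor p21, was at 134 and 139.7 CPM in control and at 438 and 613 CPM in PRMT5i libraries (1.94 ± 0.15, adjusted p = 1.97e-05). In both genes the PRMT5i libraries lay far above the controls. MDM2, the ubiquitin ligase that is both a target and the main brake of p53, went from 152 and 166 CPM to 381 and 459.6 CPM (1.40 ± 0.12, adjusted p = 4.04e-05).

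The pro-apoptotic members BAX (52.1 and 58.6 CPM in control, 107 and 143 CPM under PRMT5i) and BBC3, which encodes PUMA (10.1 and 10.2 CPM, 22.3 and 29.5 CPM), rose by 1.17 and 1.35 on the log2 scale. BTG2, an antiproliferative factor, showed a wide spread between its PRMT5i libraries at 57.1 and 93.5 CPM, both far above the controls at 12.4 and 16.6 CPM (2.37 ± 0.24, adjusted p = 0.000119). ZMAT3, an RNA-binding p53 effector, had little spread (49.9 and 44.6 CPM in control, 115 and 124 CPM under PRMT5i, 1.34 ± 0.10, adjusted p = 1.54e-05). Chosen after their values were seen, the 2 members that were not called were PMAIP1, which encodes NOXA (0.30 ± 0.11, adjusted p = 0.0901), and APAF1, the apoptosome scaffold (-0.14 ± 0.15, adjusted p = 0.584).

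MDM4, whose splicing the study followed, was at 196 and 173 CPM in control and at 191 and 149 CPM under PRMT5i, so that the groups overlapped (-0.12 ± 0.13, adjusted p = 0.619). Gene counts do not resolve isoforms of MDM4. Leaving out any 1 library left 21 to 24 p53 targets up-regulated, and the fit of all 10 A375 libraries left 15.

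**Figure D2:**
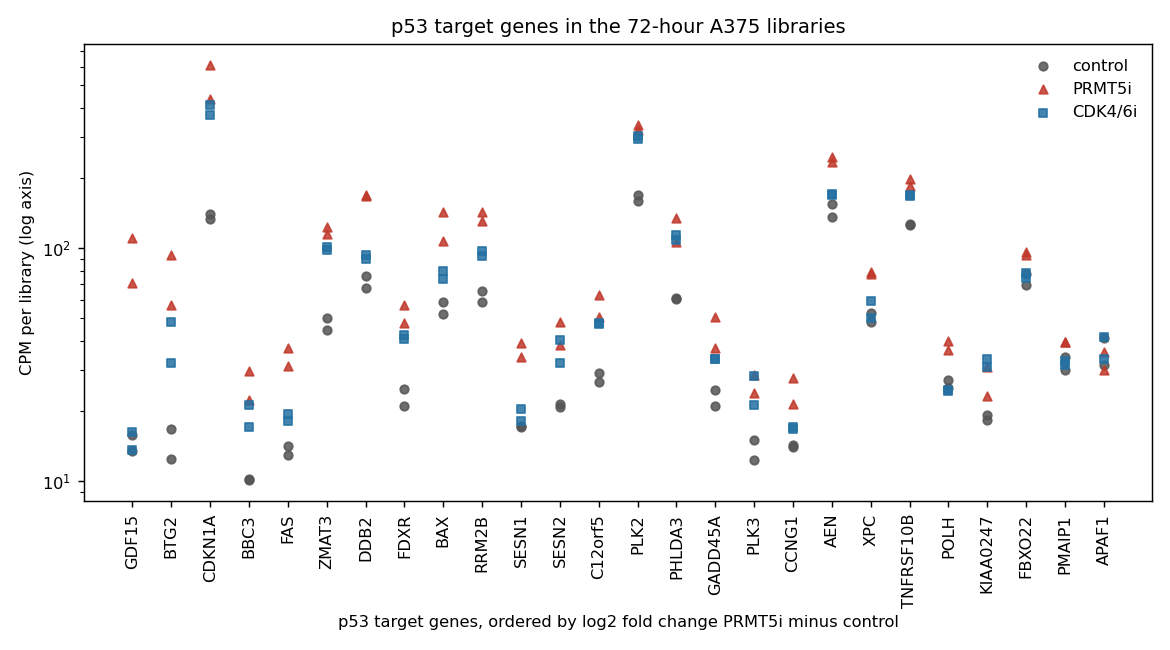
Each column is a p53 target gene and each point a library, with the level in CPM on a logarithmic axis (grey circles control, red triangles PRMT5i, blue squares CDK4/6i, 2 libraries each). Genes are ordered by fold change from GDF15 at 2.63 to APAF1 at -0.14 on the log2 scale, and for 25 of the 26 genes both PRMT5i points lie above both control points.

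Replication-dependent histone genes, which supply histones in S phase, were down-regulated in 53 of 61 members with an entry, with 0 up-regulated and a median log2 fold change of -0.97. HIST1H3A was at 65.5 and 81.5 CPM in control and at 22.9 and 28.8 CPM under PRMT5i (-1.51 ± 0.15, adjusted p = 9.35e-05). The linker histone HIST1H1D went from 327 and 405 CPM to 152 and 170.3 CPM (-1.18 ± 0.12, adjusted p = 0.000132), and HIST1H4F from 161 and 211 CPM to 73.9 and 88.0 CPM (-1.20 ± 0.13, adjusted p = 0.00017). The steepest fall of the family was that of HIST1H1A, from 5.34 and 10.1 CPM to 1.11 and 1.53 CPM (-2.54 ± 0.35, adjusted p = 0.000582). Histone genes are near-identical copies and most of their messages lack a poly-A tail, so the single values are uncertain in a poly-A library. Without control replicate 2, in which the median histone gene lay at 0.18 against -0.18 in control replicate 1 (log2(CPM + 1) less the control mean), 33 members were called, and 23 were called with all 10 A375 libraries in the fit. Among 10 histone variants classed as replication-independent, 4 were down-regulated and 0 up-regulated, led by H2AFX (164 and 206 CPM, 100.7 and 121 CPM, -0.74 ± 0.13, adjusted p = 0.00206). With all 10 A375 libraries in the fit 0 were called. Without control replicate 2, the fold changes of the called members H2AFV and H2AFZ were -0.41 and -0.35 on the log2 scale.

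Genes of DNA replication in the E2F programme were down-regulated in 37 of 46 members, with 0 up-regulated and a median of -0.65. RRM2, the regulated subunit of ribonucleotide reductase, which makes deoxynucleotides, fell most, from 230.2 and 339 CPM to 83.9 and 96.7 CPM (-1.66 ± 0.17, adjusted p = 0.000112). POLA1, the catalytic subunit of the priming polymerase, went from 174 and 164 CPM to 79.4 and 71.1 CPM (-1.17 ± 0.10, adjusted p = 4.33e-05). CDC45, a part of the replicative helicase, was at 46.4 and 47.1 CPM in control and at 24.0 and 23.5 CPM under PRMT5i (-0.98 ± 0.11, adjusted p = 0.000185). In all these genes the control and PRMT5i libraries were well apart. RFC3, a subunit of the clamp loader, fell by 0.90, and the helicase subunit MCM2 by 0.42. MCM2 lost its call without PRMT5i replicate 1 (-0.36), without control replicate 2 (-0.31) and without either CDK4/6i library (-0.42).

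Of the E2F factors, E2F2 was at 25.2 and 26.7 CPM in control and at 13.02 and 10.2 CPM under PRMT5i (-1.16 ± 0.16, adjusted p = 0.000643), and E2F3 at 119 and 108 CPM and 78.5 and 81.4 CPM (-0.50 ± 0.10, adjusted p = 0.00433). E4F1, a regulator of p53 and cell cycle genes, was not called (0.18 ± 0.10, adjusted p = 0.273). Chosen after its values were seen, CCNE1, the G1/S cyclin, had the highest fold change of the replication list and was not called either (0.43, adjusted p = 0.138). Leaving out any 1 library left 28 to 37 members of the list down-regulated, and the fit of all 10 A375 libraries left 12.

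Genes of G2 and mitosis were down-regulated in 37 of 40 members, again with 0 up-regulated and a median of -0.66. ASPM, a spindle pole protein, was at 458 and 509 CPM in control and 231 and 209 CPM under PRMT5i (-1.13 ± 0.11, adjusted p = 0.000112). NUSAP1, which binds spindle microtubules, went from 127 and 148 CPM to 71.5 and 70.3 CPM (-0.96 ± 0.10, adjusted p = 0.000168), and KIF23, a kinesin of cytokinesis, from 124 and 141 CPM to 72.6 and 69.4 CPM (-0.90 ± 0.10, adjusted p = 0.000206). The proliferation marker MKI67 fell by 0.81 and the mitotic cyclin CCNB1 by 0.56 on the log2 scale. All 40 members had both PRMT5i libraries below both controls, and 3 of them were not called. CDC27, a subunit of the anaphase-promoting complex outside that list, was at 168 and 186 CPM and 150.0 and 159 CPM and was not called (-0.19 ± 0.10, adjusted p = 0.243). CCNB1 lost its call without control replicate 2 (-0.35), and leaving out any 1 library left 25 to 39 members down-regulated, against 12 with all 10 A375 libraries in the fit.

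Genes of homologous recombination, the Fanconi pathway and checkpoints, which repair broken or crosslinked DNA, were down-regulated in 22 of 34 members, with 0 up-regulated and a median of -0.67. FANCI, which with FANCD2 is loaded at crosslinks, was at 188 and 195 CPM in control and 89.7 and 81.5 CPM under PRMT5i (-1.16 ± 0.10, adjusted p = 3.78e-05). BRIP1, a helicase that binds BRCA1, went from 100.2 and 92.9 CPM to 46.3 and 41.4 CPM (-1.14 ± 0.10, adjusted p = 5.91e-05). BARD1, the partner of BRCA1 in its ubiquitin ligase, was at 54.7 and 53.9 CPM and 27.8 and 26.2 CPM (-1.01 ± 0.11, adjusted p = 0.000152), and BRCA1 itself at 135 and 148 CPM and 80.5 and 80.4 CPM (-0.81 ± 0.10, adjusted p = 0.000228). Not called was KAT5, the acetyltransferase TIP60 (0.05 ± 0.15, adjusted p = 0.872). An E2F site was found in 4 of the 30 windows of this list (13.3%), beside 4.12% of the windows of tested genes. The share was similar among the p53 targets, which rose (3 of 21 windows, 14.3%). Without any 1 library 20 to 22 members were called, and 12 in the fit of all 10 A375 libraries.

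Among 13 genes of D cyclins, CDK4/6, their inhibitors and the pocket proteins, 2 were up-regulated and 3 down-regulated. The 2 were CDKN1A and CCND2, the gene of cyclin D2. CCND2 had 1 and 3 counts in the controls and 30 and 34 counts in the PRMT5i libraries, a ratio of 18.8 after scaling by library size with an exact 95% interval of 7.00 to 71.2 that covers counting error only. CCND1, the gene of cyclin D1, was at 401 and 414 CPM in control and at 402 and 489 CPM under PRMT5i and was not called (adjusted p = 0.551). RB1, the retinoblastoma protein, fell by 0.49 (113 and 124 CPM to 82.2 and 86.8 CPM) and its relative RBL1 by 0.82 (100.3 and 99.6 CPM to 58.8 and 54.5 CPM). CDK16, a cyclin Y-dependent kinase, was not called (-0.23 ± 0.10, adjusted p = 0.16). The third fall, of CDKN2D, was called in 1 of 6 fits that left out a library, the one without PRMT5i replicate 2, and lay between -0.61 and -0.38 in the other fits. With all 10 A375 libraries in the fit 1 of the 3 falls was called.

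**Figure D3:**
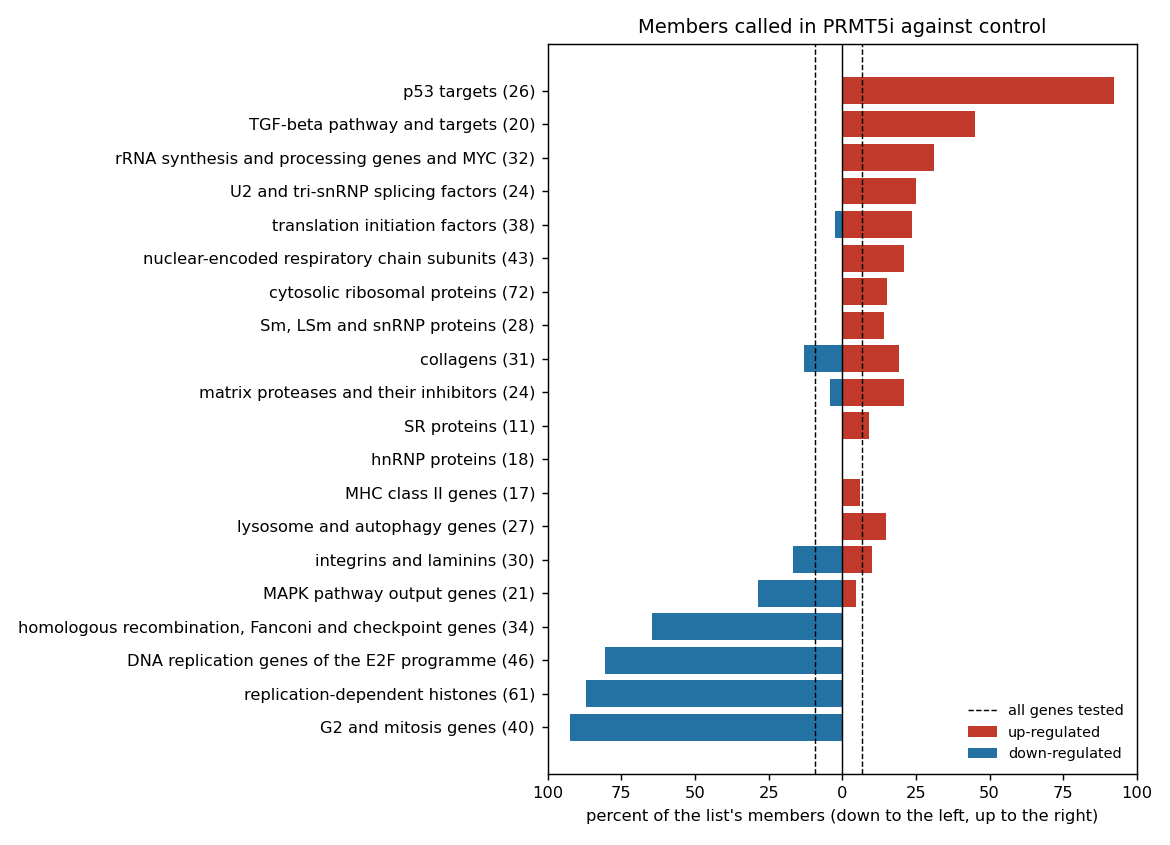
Bars give the percent of each list's members (number with an entry in parentheses) that were up-regulated (red, to the right) or down-regulated (blue, to the left) in PRMT5i against control, and dashed lines mark the shares over all genes tested, 6.64% and 9.13%. The p53 targets stand at the top and the histone, replication, recombination and mitosis lists at the bottom with calls in 1 direction each, while hnRNP proteins have none.

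Splicing factors were of interest because Sm proteins are substrates of PRMT5. Sm, LSm and snRNP protein genes had 4 of 28 members up-regulated and 0 down-regulated (median 0.18). SNRPB, SNRPD1 and SNRPD3, whose proteins carry the methylated arginines, were not called, at 0.28, -0.08 and 0.36 on the log2 scale. SNRPB, for example, lay at 185 and 225 CPM in control and 235 and 262 CPM under PRMT5i. The 4 calls fell to 1 without PRMT5i replicate 2 and to 0 without control replicate 1 or either CDK4/6i library, rose to 7 without PRMT5i replicate 1, and were 0 with all 10 A375 libraries in the fit.

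U2 and tri-snRNP factors, which recognise the branch point and build the active spliceosome, had 6 of 24 members up-regulated and 0 down-regulated, with a median of 0.28. PRPF3, a component of the U4/U6 snRNP, had nearly equal replicates, at 80.3 and 80.2 CPM in control and 161 and 158 CPM under PRMT5i (0.99 ± 0.09, adjusted p = 7.77e-05). PRPF38B, a factor of spliceosome activation, went from 45.2 and 46.7 CPM to 70.3 and 84.8 CPM (0.75 ± 0.11, adjusted p = 0.00104). U2AF2, which binds the polypyrimidine tract, was at 85.9 and 100.3 CPM in control and 82.2 and 121 CPM under PRMT5i, overlapping groups (0.13 ± 0.15, adjusted p = 0.644). The count of 6 became 2 without PRMT5i replicate 2, without control replicate 1 or without either CDK4/6i library, 13 without PRMT5i replicate 1, and 1 with all 10 A375 libraries in the fit.

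SR proteins and hnRNP proteins, the common regulators of exon choice, were rarely called. SRSF8 was the 1 up-regulated member of 11 SR proteins (32.5 and 32.7 CPM in control, 44.3 and 57.4 CPM under PRMT5i, 0.64 ± 0.13, adjusted p = 0.00474). SRSF1 (0.03, adjusted p = 0.934) and SRSF3 (-0.04, adjusted p = 0.864) were not called, and neither was any of 18 hnRNP genes by edgeR, DESeq2 or voom, of which 3 had an unadjusted p below 0.05 in edgeR and 2 had groups that did not overlap. Of the hnRNP genes, 1 was called up without PRMT5i replicate 1 or control replicate 2, and 1 was called down without PRMT5i replicate 2. Of the SR protein kinases and TRA2 proteins, SRPK2 (251 and 229.7 CPM to 149.8 and 162 CPM, -0.62 ± 0.10, adjusted p = 0.00171) and DYRK1A (125 and 117 CPM to 84.6 and 85.2 CPM, -0.51 ± 0.10, adjusted p = 0.00392) were down-regulated among 9, and CLK1 was not called. With all 10 A375 libraries in the fit, SRSF8, SRPK2 and DYRK1A were not called. In the SMN complex, which loads Sm proteins on snRNAs, SMN1 was the 1 call of 10, lost without PRMT5i replicate 2, control replicate 1 or either CDK4/6i library, and its reads cannot be told apart from those of its near-identical copy SMN2.

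Among genes of ribosome production, translation and the respiratory chain, most members were not called, and nearly all calls were rises. Cytosolic ribosomal protein genes had 11 of 72 members up-regulated and 0 down-regulated (median 0.35), rRNA synthesis and processing genes and MYC 10 of 32 and 0 (0.27), and nuclear-encoded respiratory subunits 9 of 43 and 0 (0.30). Translation initiation factors had 9 of 38 up-regulated and 1 down-regulated (0.14), and snoRNA host genes 4 of 14 up-regulated. Of these, PES1, a factor of large ribosomal subunit assembly, was at 90.04 and 108 CPM in control and 151 and 179.7 CPM under PRMT5i (0.74 ± 0.12, adjusted p = 0.00154), and NOP2, an rRNA methyltransferase, at 105 and 121 CPM and 163 and 179 CPM (0.60 ± 0.11, adjusted p = 0.00276). MYC was at 15.6 and 16.01 CPM and 20.1 and 20.4 CPM and was not called (adjusted p = 0.0808).

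The number of these rises depended on which library was left out, and with all 10 A375 libraries in the fit it was 0 in each of these 5 lists. The median ribosomal protein gene lay at -0.11 and 0.11 in the control libraries and at 0.15 and 0.51 in the PRMT5i libraries, in log2(CPM + 1) against the control mean, so that PRMT5i replicate 1 was near control replicate 2. Of the ribosomal calls 44 were made without PRMT5i replicate 1, 1 without PRMT5i replicate 2, 0 without control replicate 1, and 1 and 2 without CDK4/6i replicate 1 and 2. The counts for rRNA genes were 4 without PRMT5i replicate 2, 2 without control replicate 1 and 4 without either CDK4/6i library. For initiation factors they were 2, 0 and 3 in these fits, and for snoRNA hosts 0 in all of them and 1 without PRMT5i replicate 1. For respiratory subunits they were 0 in these fits and 20 without PRMT5i replicate 1.

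Signalling and matrix genes changed in both directions. TGF-beta pathway genes and targets had 9 of 20 members up-regulated and 0 down-regulated (median 0.32). PMEPA1, a feedback inhibitor of that pathway, was at 30.2 and 33.0 CPM in control and 62.9 and 71.5 CPM under PRMT5i (1.09 ± 0.12, adjusted p = 0.00017). TGFBI, a matrix protein, went from 247 and 231 CPM to 461 and 410.3 CPM (0.87 ± 0.12, adjusted p = 0.000594). The count was 5 without control replicate 1 and 3 with all 10 A375 libraries in the fit. THBS1, another matrix gene, was at 1290.3 and 1655 CPM and 2748 and 3559.8 CPM (1.10 ± 0.17, adjusted p = 0.00112).

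Output genes of the MAPK pathway, which mutant BRAF drives, had 6 of 21 members down-regulated and 1 up-regulated (median -0.15). The 1 up-regulated was the immediate-early factor EGR1, at 3.79 and 4.33 CPM in control and 11.9 and 21.9 CPM under PRMT5i (2.05 ± 0.27, adjusted p = 0.000416). DUSP6, a usual readout of ERK activity, overlapped between groups at 171 and 183 CPM and 166 and 198 CPM (0.04 ± 0.12, adjusted p = 0.88). The count of 6 was 2 without either control or either PRMT5i library and 3 without either CDK4/6i library, and with all 10 A375 libraries in the fit it was 0.

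Among EGF ligands and ERBB receptors, 2 of 15 were up-regulated and 3 down-regulated. EGF was down-regulated at a low level (5.86 and 5.22 CPM to 2.2 and 2.56 CPM, -1.23 ± 0.23, adjusted p = 0.00313), as was NRG2 (62.3 and 53.5 CPM to 27.3 and 34.1 CPM, -0.92 ± 0.13, adjusted p = 0.000703). The ligands TGFA (290.1 and 321 CPM to 510.1 and 583 CPM) and HBEGF (14.3 and 14.9 CPM to 25.6 and 31.4 CPM) were up-regulated by 0.84 and 0.96 on the log2 scale. The receptor EGFR fell by 0.42 but lost its call without control replicate 1 (-0.40) or either CDK4/6i library (-0.42), and the list's count of 3 was 2 in these fits. With all 10 A375 libraries in the fit, 0 members of the list were up-regulated and 2 down-regulated. Ligands of this receptor family moved in both directions.

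Collagens had 6 of 31 members up-regulated and 4 down-regulated. COL1A1, a chain of fibrillar collagen I, went from 11.3 and 11.4 CPM to 26.0 and 26.3 CPM (1.20 ± 0.14, adjusted p = 0.000196) and COL5A1, of collagen V, from 112 and 109 CPM to 197 and 192 CPM (0.82 ± 0.10, adjusted p = 0.000229). The collagen VI chains fell, with COL6A1 at -0.77, COL6A2 at -0.91 and COL6A3 at -1.03 on the log2 scale. COL6A3, for example, was at 41.1 and 46.8 CPM in control and 21.8 and 21.2 CPM under PRMT5i (adjusted p = 0.000145). Integrins and laminins had 3 of 30 up-regulated and 5 down-regulated, led by the laminin receptor subunit ITGA3 (859.8 and 847 CPM to 488 and 529.6 CPM, -0.75 ± 0.12, adjusted p = 0.00156). The 5 falls were 3 without either PRMT5i library or control replicate 2, 1 without control replicate 1 and 2 without either CDK4/6i library. With all 10 A375 libraries in the fit, collagens had 2 calls in each direction and integrins and laminins 1.

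Of 20 melanocyte genes 1 was up-regulated and 2 were down-regulated (15.0% called, near the 15.8% of all genes). Of 21 genes of the dedifferentiated and invasive melanoma state 5 were up-regulated and 3 down-regulated (38.1% called). MITF, the master regulator of the lineage, was at 123 and 115 CPM in control and 142 and 138 CPM under PRMT5i (0.24 ± 0.10, adjusted p = 0.117), and AXL, a receptor of the dedifferentiated state, at 679 and 742 CPM and 624 and 688 CPM (-0.11 ± 0.12, adjusted p = 0.581). PAX3, a lineage factor upstream of MITF, fell by 0.55 (48.3 and 47.3 CPM to 31.4 and 34.1 CPM, adjusted p = 0.00519). The up-regulated melanocyte gene was DCT, which had 0 counts in both controls and 8 and 4 counts under PRMT5i, at least 4.70-fold higher when the controls together are set at 3 counts. Its call was lost without PRMT5i replicate 1 and without either control, and the melanocyte falls were 1 without PRMT5i replicate 2 or either control. In the dedifferentiated list, ZEB1, a transcription factor of that state, fell by 0.58, and THBS1 and TGFBI, described above, rose. Its 5 rises were 3 without PRMT5i replicate 2, control replicate 1 or either CDK4/6i library, and with all 10 A375 libraries in the fit 2 rises and 0 falls were called.

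Among stress and immune lists other than p53, the ATF4 and interferon lists had calls in both directions. The endoplasmic reticulum chaperones had none in the main fit. The ATF4 amino acid response had 4 of 29 members up-regulated and 3 down-regulated (24.1% called, beside 15.8% of all genes). Interferon-stimulated genes had 2 up-regulated and 3 down-regulated of 29 (17.2% called, near the share of all genes). Endoplasmic reticulum chaperones had 0 of 17 called by edgeR, DESeq2 or voom, 4 at an unadjusted p below 0.05 in edgeR, 3 called up without PRMT5i replicate 1 and 2 with a GC correction. ATF4 (-0.06 ± 0.11, adjusted p = 0.794) and the chaperone HSPA5 (0.11 ± 0.15, adjusted p = 0.688) were not called. The cystine transporter SLC7A11 fell from 46.6 and 48.8 CPM to 24.0 and 25.9 CPM (-0.94 ± 0.12, adjusted p = 0.000431), and ATF3, a stress factor that p53 also induces, rose from 8.97 and 7.67 CPM to 19.8 and 22.6 CPM (1.35 ± 0.16, adjusted p = 0.000229). The interferon counts were 4 up-regulated without PRMT5i replicate 1, 1 without PRMT5i replicate 2, control replicate 1 or either CDK4/6i library, and 1 down-regulated without control replicate 1. The ATF4 count of 4 was 2 without PRMT5i replicate 2 or either control, and the count of 3 was 1 without control replicate 2 or either CDK4/6i library. With all 10 A375 libraries in the fit, 1 ATF4 gene was called in each direction and 0 interferon genes were.

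Many of the largest single changes lay outside these lists. INPP5D, the lipid phosphatase SHIP1, rose from 5.45 and 4.43 CPM to 35.9 and 32.3 CPM (2.79 ± 0.16, adjusted p = 4.92e-06), and PVRL4, the adhesion protein nectin-4, from 1.24 and 1.41 CPM to 8.39 and 10.4 CPM (2.81 ± 0.24, adjusted p = 4.04e-05). At higher levels, the carboxypeptidase M gene CPM (named like the unit) rose by 2.01 and CYFIP2, a member of the WAVE complex, by 1.86. TACR1, the receptor of substance P, fell from 17.3 and 13.1 CPM to 1.70 and 1.28 CPM (-3.34 ± 0.25, adjusted p = 1.29e-05), the nuclear receptor ESRRB from 10.7 and 5.84 CPM to 0.997 and 0.703 CPM (-3.26 ± 0.37, adjusted p = 0.000182), and PBX3, a homeobox factor, from 91.4 and 79.5 CPM to 28.5 and 26.1 CPM (-1.65 ± 0.12, adjusted p = 1.29e-05).

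Several unnamed transcripts were also among the largest changes. AL592188.4 had the highest fold change (3.91) among DEGs whose mean reached 1 CPM, but very unequal PRMT5i libraries, 234 and 2804 CPM, against 75.7 and 126 CPM in the controls, and it lost its call without PRMT5i replicate 2 (1.21) and without control replicate 1 (3.59). CTD-2043I16.1 rose from 0.311 and 0.261 CPM to 3.64 and 3.39 CPM (3.59 ± 0.37, adjusted p = 0.000135), and LINC00669 fell from 149 and 144 CPM to 41.5 and 34.7 CPM (-1.94 ± 0.12, adjusted p = 9.12e-06). Reads of these transcripts may not be separable from those of overlapping or antisense genes, since the sources do not say that the libraries kept strand.

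Called genes differed in length. Among 13134 genes with a matched annotation whose mean reached 1 CPM (87.19% of 15064), up-regulated genes spanned a median of 20.1 kb from start to end, down-regulated genes 108.5 kb and all these genes 36.9 kb. The longest transcript of up-regulated genes had a median of 7 exons and a GC content of 51.6%, against 11 exons and 43.99% for down-regulated genes. In the longest of 10 equal groups of genes 38.0% were down-regulated and 4.49% up-regulated, with a median log2 fold change of -0.32. In the shortest group these were 6.47% and 12.7%, with a median of 0.18. Against the control mean, the longest group lay at -0.27 and -0.30 in the PRMT5i and at -0.25 in both CDK4/6i libraries, which share these controls, while the control libraries themselves lay at 0.07 and -0.07. The part of gene length or GC content in the calls was not tested beyond the GC correction, under which 2933 genes were called.

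**Figure D4:**
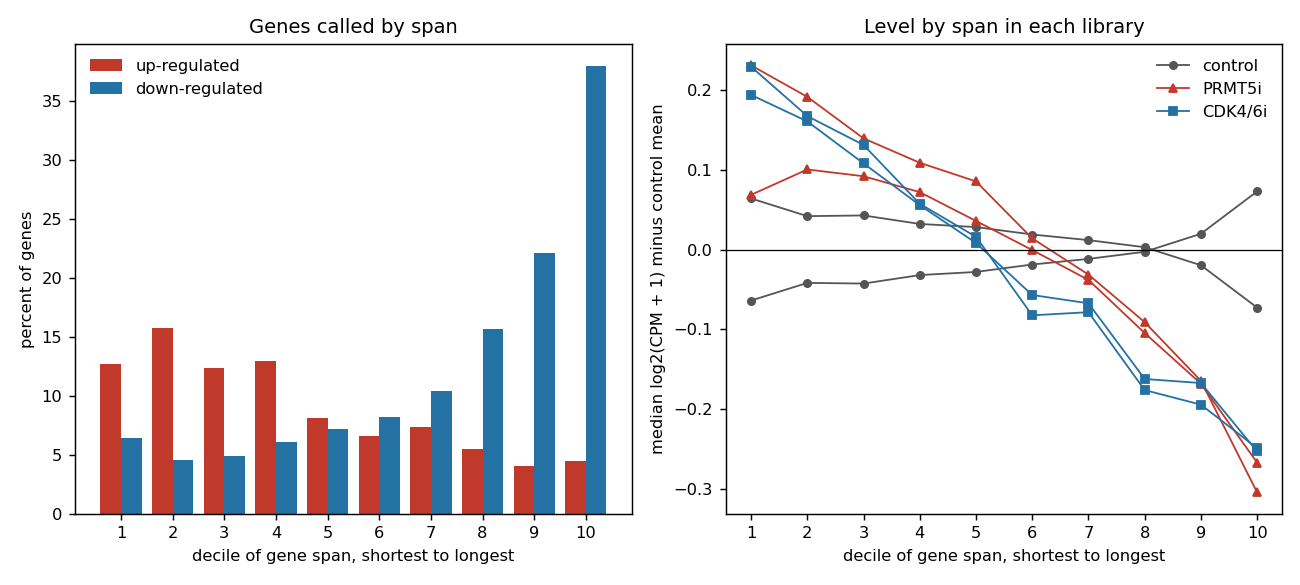
Left, the percent of genes up-regulated (red) and down-regulated (blue) in PRMT5i against control is shown for 10 equal groups of genes ordered by span, from the shortest to the longest. Right, the median level of each group in log2(CPM + 1) against the mean of both controls is shown for each library, falling with span in the PRMT5i and CDK4/6i libraries to between -0.25 and -0.30 in the longest group.

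The direct comparison of PRMT5i with CDK4/6i libraries addressed where the response to GSK3326595 departed from that to palbociclib at the same time. The control libraries were not part of this contrast, but they shared its scaling and its estimate of spread. Between these treatments 4571 genes differed (22.1% of genes tested), of which 2364 were higher (11.4%) and 2207 lower (10.7%) under PRMT5i. This count was 1507 or 1368 without CDK4/6i replicate 1 or 2, and 1129 with all 10 A375 libraries in the fit.

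The median p53 target lay above both controls under both treatments. In log2(CPM + 1) against the control mean, it was at 0.84 and 1.14 in PRMT5i and at 0.51 and 0.52 in CDK4/6i libraries. Some p53 targets set the treatments apart. GDF15 lay at 13.5 and 16.2 CPM in the CDK4/6i libraries, near the controls, against 70.9 and 110.2 CPM under PRMT5i (difference 2.60 ± 0.19, adjusted p = 1.11e-05). MDM2 was at 215 and 223 CPM under CDK4/6i and 0.94 higher on the log2 scale under PRMT5i (adjusted p = 0.00023). CDKN1A, in contrast, was at 374 and 412 CPM under CDK4/6i, and its difference of 0.42 ± 0.15 missed the threshold (adjusted p = 0.0587). In all, 12 of the 26 p53 targets were higher and 0 lower under PRMT5i than under CDK4/6i. MDM4 was at 113 and 94.1 CPM under CDK4/6i, below both PRMT5i libraries (difference 0.72 ± 0.14, adjusted p = 0.00262).

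Cell cycle genes were higher under PRMT5i than under CDK4/6i, and lay lower still in the CDK4/6i libraries. This was so for 49 of 61 histone genes, 31 of 46 replication genes, 34 of 40 mitosis genes and 20 of 34 recombination genes, with 0 members lower except 1 of the recombination list, FANCM, which was chosen after its values were seen (-0.39 ± 0.13, adjusted p = 0.0479). HIST1H1D was at 54.9 and 56.1 CPM under CDK4/6i (difference 1.54 ± 0.13, adjusted p = 1.61e-05) and MKI67 at 146 and 174 CPM against 287 and 308 CPM under PRMT5i (difference 0.90 ± 0.12, adjusted p = 0.000388). For some genes no difference was called. RRM2 was at 71.2 and 85.8 CPM under CDK4/6i (difference 0.20 ± 0.16, adjusted p = 0.43), POLA1 at 64.5 and 69.7 CPM (difference 0.16 ± 0.10, adjusted p = 0.291) and FANCI at 74.8 and 72.0 CPM (difference 0.22 ± 0.10, adjusted p = 0.138).

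Many splicing factors were also higher under PRMT5i than under CDK4/6i. These were 12 of 18 hnRNP genes, 13 of 24 U2 and tri-snRNP factors, 11 of 28 Sm, LSm and snRNP proteins and 4 of 11 SR proteins, with 0 lower in each list. In log2(CPM + 1) against the control mean, the median hnRNP gene lay at -0.19 and 0.07 in PRMT5i and at -0.51 and -0.46 in CDK4/6i libraries. For SR proteins these were -0.03 and -0.05, and -0.15 and -0.27. For U2 and tri-snRNP factors they were 0.14 and 0.44, and -0.28 and -0.17. For Sm, LSm and snRNP proteins they were 0.06 and 0.31, and -0.15 and -0.05. PRPF3 was at 71.0 and 73.7 CPM in the CDK4/6i libraries, below both groups of the main comparison (difference 1.14 ± 0.09, adjusted p = 1.81e-05). SNRPB was at 149 and 152 CPM (difference 0.72 ± 0.12, adjusted p = 0.00109) and SRSF3 at 176 and 174 CPM (difference 0.49 ± 0.12, adjusted p = 0.0108). PRMT5 itself was at 11.4 and 12.6 CPM under CDK4/6i (difference 0.65 ± 0.16, adjusted p = 0.0117).

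Many antigen presentation genes lay lower under PRMT5i than under CDK4/6i. Of MHC class II genes 11 of 17 and of MHC class I presentation genes 9 of 13 were lower and 0 higher, with median differences of -1.32 and -0.87. HLA-DRA, the alpha chain of HLA-DR, was at 68.5 and 95.1 CPM under CDK4/6i against 19.1 and 27.6 CPM under PRMT5i (difference -1.81 ± 0.19, adjusted p = 6.82e-05). HLA-B was at 43.4 and 43.4 CPM against 9.32 and 11.1 CPM (difference -2.09 ± 0.13, adjusted p = 4.47e-06). HLA genes are polymorphic and resemble one another, so reads may be split among them. The control libraries lay at 12.1 and 15.7 CPM for HLA-DRA and at 15.1 and 15.4 CPM for HLA-B. Both genes were called against control, HLA-DRA up and HLA-B down, but the first call was lost without PRMT5i replicate 2 (0.46), control replicate 1 (0.57) or CDK4/6i replicate 2 (0.75), and the second without PRMT5i replicate 1 (-0.46) or control replicate 2 (-0.56).

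Lysosome and autophagy genes were lower under PRMT5i than under CDK4/6i in 14 of 27 members and higher in 0. Matrix proteases and their inhibitors were lower in 10 of 24 and collagens in 11 of 31, against 2 and 2 higher. Against control, 4 lysosome genes were up-regulated and 0 down-regulated, and 0 were up-regulated with all 10 A375 libraries in the fit. In log2(CPM + 1) against the control mean, the median lysosome gene lay at 0.10 and 0.19 in PRMT5i and 0.58 and 0.53 in CDK4/6i libraries. For proteases these were 0.05 and 0.12, and 0.42 in both, and for collagens 0.20 and 0.06, and 0.37 and 0.36. COL6A3 was at 83.0 and 85.6 CPM under CDK4/6i, above the controls, and at 21.8 and 21.2 CPM under PRMT5i, below them (difference -1.97 ± 0.11, adjusted p = 2.53e-06). COL1A1 showed the opposite order, with 6.57 and 5.51 CPM under CDK4/6i and 26.0 and 26.3 CPM under PRMT5i (difference 2.12 ± 0.15, adjusted p = 1.07e-05). EGR1 was at 2.88 and 3.91 CPM under CDK4/6i, near the controls (difference 2.31 ± 0.28, adjusted p = 0.00016). CCND1 was higher under CDK4/6i, at 747 and 769 CPM (difference -0.77 ± 0.13, adjusted p = 0.00112), as was DUSP6, at 267 and 293 CPM (difference -0.62 ± 0.12, adjusted p = 0.00241), and EGF, at 6.41 and 6.49 CPM, was 1.45 lower on the log2 scale under PRMT5i (adjusted p = 0.000745).

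**Figure D5:**
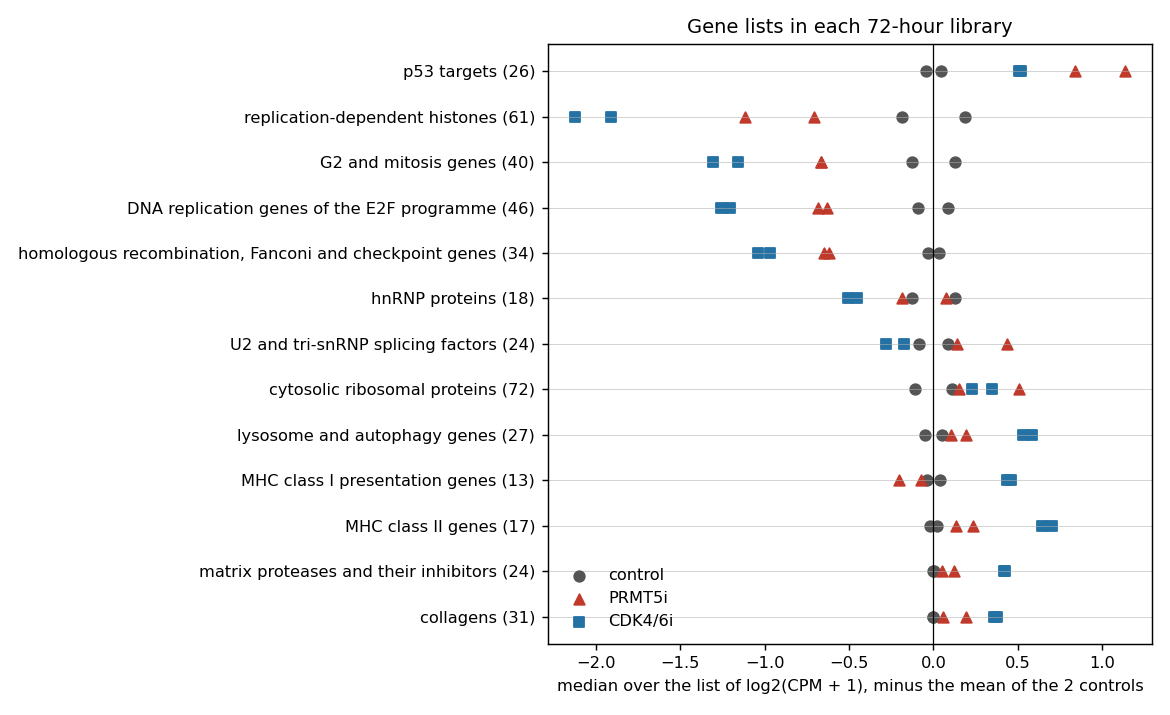
For each gene list (number of members in parentheses) the median over its members of log2(CPM + 1), less the mean of both controls, is plotted for each 72-hour library (grey circles control, red triangles PRMT5i, blue squares CDK4/6i). The p53 targets lie highest in the PRMT5i libraries (0.84 and 1.14), the cell cycle lists lie between control and CDK4/6i, and MHC class II genes, proteases, lysosome genes and collagens lie highest in the CDK4/6i libraries.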

How the data were processed

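Whole-number counts per gene were deposited by the authors as 1 table. Per the study's methods, poly-A RNA was sequenced and reads were aligned and counted per gene, and the submitters' processing notes name FastQC 0.11.6, HISAT2 2.0.4, HTSeq 0.11.2 and GRCh37/hg19. The study's methods name another HTSeq version. Here the 6 A375 72-hour libraries (control, PRMT5i, CDK4/6i) were fitted together in edgeR 4.0.16 (limma 3.58.1, R 4.3.3): no filter on low counts was applied, libraries were scaled by TMM, and quasi-likelihood tests were adjusted by Benjamini-Hochberg over 20705 genes. CPM values are counts scaled to the TMM-adjusted library size. Errors are standard errors of the log2 fold change, derived from the quasi-likelihood F statistic. Their spread was estimated over all 6 libraries, 2 per group, and not from the compared groups alone. DESeq2 1.42.0, voom and other settings were alternatives. The steps were tested on simulated data in which each gene had the same spread in every group. That test cannot show how the unequal spread of the real groups affects the calls. Genes were named by rule: PRMT5 complex genes and genes the study names, the 6 largest rises and falls among DEGs without overlap at a mean of at least 1 and of at least 20 CPM, up to 3 DEGs of lowest p per list and direction, and usual readouts of each list. Others were chosen after their values were seen. The members and gene lists were chosen with earlier results of these data known. Promoter letters came from RefSeq GRCh38.p14, and no coordinates were moved between builds.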

Additional observations from a re-analysis of the deposited data

How the results depend on the processing

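With 2 libraries per group the number of DEGs depended on how the spread was estimated, while no DEG was called in the opposite direction under any alternative run. For PRMT5i against control the count was 3265, and it was 1861 with the 2 compared groups alone, 541 with all 10 A375 libraries, 666 with all 18 libraries, 676 when a log2 fold change of at least 1 was also asked for, and 1598 to 3225 with 1 library left out. For PRMT5i against CDK4/6i it was 4571, and 1129 with all 10 A375 libraries, 1395 with all 18, 1085 with a change of at least 1, and 1368 to 4520 with 1 library left out. The cause was not tested. Labels give replicate numbers but do not say that they mark a shared culture or day, and with 2 numbers the libraries were not taken as paired. The correlation of deviations between same-numbered libraries was positive for each pair of groups, 0.422 for control and PRMT5i, 0.192 for control and CDK4/6i and 0.219 for CDK4/6i and PRMT5i. With the replicate block the counts were 6113 and 7167, and up-regulated members rose from 11 to 58 for ribosomal proteins, from 9 to 29 for respiratory subunits, from 9 to 17 for initiation factors and from 0 to 8 for mitochondrially encoded mRNAs. With the replicate block and a GC correction together the count was 5423 for PRMT5i against control. DESeq2 called 2946 genes and voom 2588. A comparison of the GC correction with an uncorrected fit of the same genes (2933 and 3249 DEGs) was chosen after seeing the data.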

Other observations

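Of 16 BCL2 family genes 3 were up-regulated, BAX, BBC3 and BCL2L1, and BCL2 was down-regulated (4 of 16 called, beside 15.8% of all genes). BCL2L1 lost its call without PRMT5i replicate 2 (0.27), without either control (0.39 and 0.36) and without either CDK4/6i library (0.37). YAP and TEAD targets had 4 of 18 up-regulated and 1 down-regulated, with 2 rises without PRMT5i replicate 1 or control replicate 2 and 0 falls without PRMT5i replicate 2 or control replicate 1. Matrix proteases and their inhibitors had 5 of 24 up-regulated and 1 down-regulated, and 3 rises without PRMT5i replicate 2. Mitochondrially encoded mRNAs (13 genes) had 0 calls against control by edgeR, DESeq2 or voom (3 at an unadjusted p below 0.05 in edgeR) but 5 rises without PRMT5i replicate 1, and 5 were lower under PRMT5i than under CDK4/6i. Cholesterol and fatty acid synthesis genes had 1 of 30 up-regulated and 3 down-regulated against control, and 13 were higher and 1 lower than under CDK4/6i. The count of 3 was 1 without PRMT5i replicate 1 or either control.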
